A study of Mus musculus with 13 samples.

Results

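Genes of the proteasome were followed in CD45- cells of the mouse thymus at steady state and after total body irradiation (TBI). They are 9 of the 53379 genes in the count matrix, chosen by name and role: the constitutive catalytic subunits Psmb5, Psmb6 and Psmb7, the immune subunits Psmb8, Psmb9 and Psmb10, the thymic subunit Psmb11, and the activator subunits Psme1 and Psme2. All 9 passed the filter on low counts. The mice were wild-type C57BL/6 at 2 months of age, and the cells were the nonhematopoietic fraction, which holds thymic epithelial cells (TECs), endothelial cells and fibroblasts. There were 4 libraries at steady state, from untreated mice that the count matrix names as phosphate-buffered saline (PBS) controls of days 1, 4 and 7, and 3 libraries each at days 1, 4 and 7 after a sublethal TBI. No source used here ties each library to a separate mouse, so p-values measure the spread between libraries. The fraction is a mixture of cell types, and fewer cells of a type cannot be told apart from less RNA per cell.

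The proteasome degrades ubiquitin-tagged proteins inside a barrel called the 20S core, whose β1, β2 and β5 positions carry the catalytic sites. In most cells these are Psmb6 (β1), Psmb7 (β2) and Psmb5 (β5). Interferon signalling and immune cells replace them with Psmb9 (β1i), Psmb10 (β2i) and Psmb8 (β5i), which make the immunoproteasome and favor peptides that bind major histocompatibility complex (MHC) class I. Cortical TECs (cTECs), which select developing CD8 T cells, place Psmb11 (β5t) at the β5 position, and the resulting thymoproteasome is found in these cells. The type names used here label genes, and which form of the core each subunit enters was not measured. Psme1 and Psme2 (PA28α and PA28β) form a cap that opens the core and is also induced by interferon.

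The promoter windows of the subunits are shown because the constitutive genes moved almost as 1 group whereas the immune genes Psmb8 and Psmb9 did not. Windows from RefSeq on GRCm38.p6, each from 250 bases before to 50 after an annotated start, were matched by symbol for 8 of the 9 genes, all except Psmb7. Capitals mark a match to the antioxidant response element, searched as TGACNNNGC, in Psmb5 and Psmb6, and to the interferon-gamma-activated site (GAS), searched as TTCNNNGAA, in Psmb8. The window of Psmb9 held no match and is shown because it overlaps that of Tap1, a peptide transporter gene read in the opposite direction from the same stretch.
Psmb5, chr14:54617946-54618245, minus strand: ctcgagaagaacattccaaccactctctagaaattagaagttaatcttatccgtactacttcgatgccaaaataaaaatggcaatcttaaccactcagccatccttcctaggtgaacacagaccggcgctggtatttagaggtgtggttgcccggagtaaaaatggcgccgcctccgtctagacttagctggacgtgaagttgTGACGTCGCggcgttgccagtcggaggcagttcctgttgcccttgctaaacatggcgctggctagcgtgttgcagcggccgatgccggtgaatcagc
Psmb6, chr11:70525107-70525406, plus strand: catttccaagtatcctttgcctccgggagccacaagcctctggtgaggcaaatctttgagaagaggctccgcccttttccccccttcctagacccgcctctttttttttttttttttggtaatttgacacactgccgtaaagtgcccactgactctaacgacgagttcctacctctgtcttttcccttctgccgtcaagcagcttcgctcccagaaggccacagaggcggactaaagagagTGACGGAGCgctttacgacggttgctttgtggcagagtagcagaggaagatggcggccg
Psmb8, chr17:34197945-34198244, plus strand: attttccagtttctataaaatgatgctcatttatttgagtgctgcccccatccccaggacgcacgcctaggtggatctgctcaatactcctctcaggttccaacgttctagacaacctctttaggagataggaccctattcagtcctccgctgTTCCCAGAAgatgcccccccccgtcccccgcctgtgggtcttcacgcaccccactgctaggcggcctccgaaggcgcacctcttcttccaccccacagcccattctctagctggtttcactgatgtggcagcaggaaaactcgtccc
Psmb9, chr17:34187281-34187580, minus strand: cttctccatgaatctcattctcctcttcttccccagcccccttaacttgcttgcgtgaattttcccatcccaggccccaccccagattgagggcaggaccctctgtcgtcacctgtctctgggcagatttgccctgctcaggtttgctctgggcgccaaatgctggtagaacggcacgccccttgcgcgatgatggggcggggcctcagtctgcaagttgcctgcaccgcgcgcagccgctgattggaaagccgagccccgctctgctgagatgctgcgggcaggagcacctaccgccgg

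The Psmb5 match, TGACGTCGC, began 47 bases before the start, the Psmb6 match, TGACGGAGC, 9 bases before, and the Psmb8 match, TTCCCAGAA, 97 bases before. Psme1 held the only match to the core of the interferon-stimulated response element, searched as GAAANNGAA, on the opposite strand (TTCGCTTTC) from 10 bases after its start. Windows of Psmb9, Psmb10, Psmb11, Psme2 and Tap1 held none of these. Among all 32851 windows, searched on both strands, 12.4% held the antioxidant element, 8.3% the GAS letters and 8.6% the interferon element, so such matches are common and are given as a description of the letters only. Any overlap between motifs was allowed. The RefSeq starts behind some windows, among them those of Psmb8, Psmb9, Psmb11 and Psme1, lie inside the genes as GENCODE M21 draws them, which for Psmb8 begin at 34197721 on chromosome 17 and for Psmb11 at 54621433 on chromosome 14.

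Total counts ran from 15721866 to 52056896 per library (median 44078906). Markers of TECs, fibroblasts and endothelial cells were present in every library. The summed level of 7 cTEC markers ran from 581 to 1987 CPM (counts relative to library sizes scaled by edgeR) at steady state, from 189 to 962 at day 1, from 983 to 2489 at day 4 and from 532 to 946 at day 7. The summed level of 13 thymocyte markers ran from 250 to 795 CPM at steady state, and 118 to 151, 24.3 to 39.9 and 226 to 5237 on days 1, 4 and 7, and the leukocyte gene Ptprc, which encodes CD45, from 24.0 to 119, 12.7 to 14.99, 4.07 to 4.54 and 21.6 to 606 CPM. Thymocyte markers and Ptprc were thus detected in the CD45- fraction, at the highest levels in day 7 replicates 2 and 3. One library stood apart for these genes: day 1 replicate 1 was the highest of the 3 day 1 libraries for all subunits but Psmb11, and its effect on the calls at day 1 is given beside them.

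Per length, the constitutive genes Psmb5 and Psmb6 were at similar levels at steady state, 64.9 ± 17.3 and 65.4 ± 14.2 CPM per kb of exon (mean ± SD, n = 4), and Psmb7 was at 11.9 ± 3.07. The immune genes were at 64.6 ± 10.5 for Psmb10, 44.2 ± 4.04 for Psmb8 and 21.7 ± 4.61 for Psmb9, and the activators at 66.0 ± 7.96 for Psme2 and 49.5 ± 5.33 for Psme1. Psmb11 was at 21.3 ± 12.3 CPM per kb, with the largest spread relative to its mean of the 9. In the order of these levels, Psme2, Psmb6, Psmb5 and Psmb10 did not differ beyond their spread, nor did Psme1 and Psmb8, nor Psmb9 and Psmb11. The lengths are those of all annotated exons joined, so genes with many transcripts, such as Psmb7 (3421 bases, against 1160 in its principal transcript), are pulled down. Psmb6 was divided by 1872 bases, against 798 in its principal transcript, and Psmb5 by 899 in both. The similar levels of Psmb5 and Psmb6, and the order of the genes, thus hold for these lengths only.

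**Figure D1:**
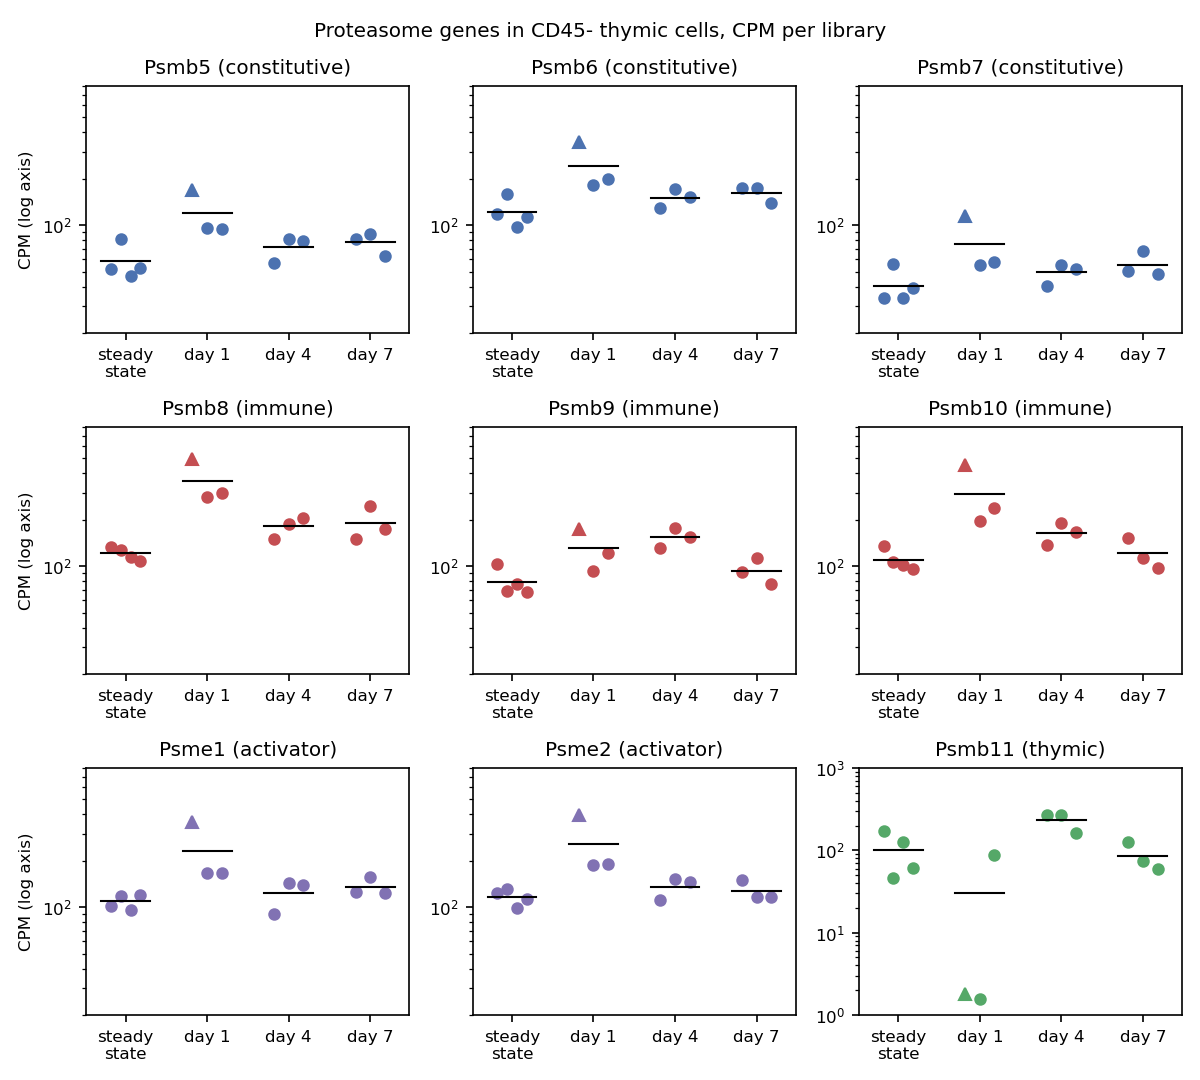
CPM (log axis) of the 9 proteasome genes in each library, by condition: points are libraries, the triangle is day 1 replicate 1, and black bars are means. Psmb8 lies between 109 and 133 CPM at steady state and between 282 and 495 at day 1, whereas Psmb11 falls to 1.78 and 1.58 CPM in 2 of the 3 day 1 libraries.

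To ask how the constitutive proteasome responded to injury, each condition was compared with steady state. Psmb5, Psmb6 and Psmb7 were all at about 2-fold higher mean levels at day 1, but none of the 3 passed the test. Psmb5, which carries the chymotrypsin-like activity, was at 52.3, 81.4, 47.0 and 52.8 CPM in the steady-state libraries, at 170, 95.7 and 94.4 at day 1, at 57.0, 81.6 and 79.0 at day 4, and at 81.5, 88.2 and 63.0 at day 7. All 3 day 1 libraries were above all 4 at steady state, while days 4 and 7 overlapped steady state. The log2 fold change at day 1 was 1.04 ± 0.27 (SE; edgeR quasi-likelihood test, adjusted p = 0.0639).

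Psmb6, the caspase-like subunit, was at 119, 160, 97.4 and 114 CPM at steady state and at 346, 183 and 200 at day 1. These 2 conditions did not overlap either, with a log2 fold change of 0.99 ± 0.25 (edgeR adjusted p = 0.0590). At days 4 and 7 Psmb6 lay between 130 and 175 CPM, overlapping the steady-state range. Psmb7, the trypsin-like subunit, was at 33.6, 55.9, 33.9 and 39.0 CPM at steady state and at 115, 55.2 and 57.6 at day 1. Here the day 1 libraries overlapped steady state through PBS day 4 replicate 2, and the log2 fold change was 0.90 ± 0.29 (edgeR adjusted p = 0.131). At days 4 and 7 Psmb7 lay between 40.3 and 67.8 CPM.

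Without day 1 replicate 1, the log2 fold changes at day 1 were 0.71 for Psmb5, 0.65 for Psmb6 and 0.48 for Psmb7, and none passed (edgeR adjusted p = 0.280, 0.255 and 0.479). Without PBS day 4 replicate 2, Psmb5 (1.24, edgeR adjusted p = 0.0232) and Psmb6 (1.14, 0.0282) passed, and Psmb7 (1.10, 0.0586) did not. Leaving out any other single library let none of them pass. The ratio of Psmb5 to Psmb6 CPM lay between 0.439 and 0.521 in all 13 libraries, and that of Psmb7 to Psmb6 between 0.283 and 0.388. Their log2 CPM correlated at 0.99 for Psmb5 with Psmb6, 0.97 for Psmb5 with Psmb7 and 0.96 for Psmb6 with Psmb7. These are descriptions over 13 libraries that share conditions and scaling.

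The genes most like Psmb5 over the 13 libraries, among 11456 compared by the Pearson correlation of log2 CPM, were all proteasome genes. They were Psmd13 (r = 0.988), of the 19S cap, Psma7 (0.988) and Psma5 (0.981), of the outer rings of the core, Psmb6 (0.987), and Psmb3 (0.984), a noncatalytic β subunit.

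Among the catalytic genes, only immune subunits passed in the edgeR fit. DESeq2 also called Psmb5, Psmb6 and Psmb7 at day 1 (adjusted p = 0.00975, 0.00675 and 0.0467). Immune and constitutive genes were not tested against each other. Psmb8 and Psmb10 rose at day 1, Psmb9 did not pass at any time, and Psmb8 remained above all steady-state libraries at days 4 and 7 without passing. Psmb8, the β5i subunit, was at 133, 127, 116 and 109 CPM at steady state, 495, 282 and 297 at day 1, 150, 189 and 207 at day 4, and 150, 244 and 175 at day 7. The day 1 libraries were above all others of the series, and every irradiated library was above every steady-state library. At day 7 the higher Psmb8 values were in replicates 2 and 3, where Ptprc was at 606 and 224 CPM, against 21.6 in replicate 1. The part of such cells in the level of Psmb8 was not tested. The rise at day 1 was 2.96-fold, a log2 fold change of 1.56 ± 0.24 (edgeR adjusted p = 0.00352). It was 1.26 without day 1 replicate 1 (edgeR adjusted p = 0.0117), so Psmb8 passed with and without the highest library, and in each of the 14 alternatives tried.

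At day 4 the log2 fold change of Psmb8 from steady state was 0.59 ± 0.24 (edgeR adjusted p = 0.347) and at day 7 it was 0.65 ± 0.24 (edgeR adjusted p = 0.240). From day 1 to day 7 it was -0.92 ± 0.26, just short of the threshold (edgeR adjusted p = 0.0503). The level at day 7 was thus between those of steady state and day 1, and differed from neither in the main edgeR fit. The fall from day 1 to day 7 passed in 3 of the 13 alternatives tried, but in none where a library was left out.

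Psmb10, the β2i subunit, was at 136, 106, 102 and 96.0 CPM at steady state, 451, 195 and 239 at day 1, 138, 190 and 167 at day 4, and 153, 114 and 97.4 at day 7. Days 1 and 4 lay above steady state without overlap, and day 7 overlapped it. Psmb10 rose 2.68-fold at day 1, a log2 fold change of 1.42 ± 0.28 (edgeR adjusted p = 0.0166), and fell by 1.28 ± 0.31 on the log2 scale from day 1 to day 7 (edgeR adjusted p = 0.0244). Both calls rest on day 1 replicate 1: without it the log2 fold changes were 0.98 (edgeR adjusted p = 0.0702) and -0.84 (edgeR adjusted p = 0.0853). The rise was also lost without PBS day 7 replicate 1 or 2 (edgeR adjusted p = 0.0553 and 0.0671), and the fall without day 7 replicate 2 or 3 (0.0939 and 0.1002).

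Psmb9, the β1i subunit, had another time course. It was at 104, 69.0, 76.2 and 68.3 CPM at steady state, 175, 93.2 and 123 at day 1, 132, 176 and 156 at day 4, and 92.3, 113 and 76.3 at day 7. Its 3 day 4 libraries were above all of steady state and day 7, and its day 1 libraries overlapped steady state. The log2 fold change was 0.72 ± 0.25 at day 1 (edgeR adjusted p = 0.161, and 0.490 without day 1 replicate 1, at 0.45), 0.96 ± 0.25 at day 4 (edgeR adjusted p = 0.142) and 0.24 ± 0.25 at day 7 (edgeR adjusted p = 0.818). Its mean was highest at day 4, when those of Psmb8 and Psmb10 were below their day 1 values, but from day 1 to day 4 Psmb9 differed by 0.25 ± 0.27 (edgeR adjusted p = 0.723). DESeq2 called Psmb9 at day 4 (log2 fold change 1.04, adjusted p = 0.00887).

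Within each library, the ratio of Psmb8 to Psmb9 CPM removes library size and scaling; it was chosen after the values were seen and is given without a test. It was 1.28 to 1.84 at steady state, 2.42 to 3.02 at day 1, 1.07 to 1.33 at day 4 and 1.63 to 2.29 at day 7. The day 1 range lay above those of all other conditions. The ratio of Psmb10 to Psmb9 was 1.95 to 2.57 at day 1 and 1.04 to 1.08 at day 4. It was 1.31 to 1.54 at steady state, with no overlap between these 3 conditions. At day 7 it was 1.01 to 1.66, which spans the ranges of both day 4 and steady state. On days 1 and 4 the 3 libraries of a condition gave similar ratios, including day 1 replicate 1, whose levels were so much higher.

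The 5 genes most like Psmb9 by the same correlation were Nudt22 (r = 0.947), Ces2e (0.946), Sept4 (0.942), Ramp3 (0.926) and Rab19 (0.921), none of which is a proteasome gene. Over the 13 libraries Psmb9 correlated at 0.64 with Psmb8 and 0.75 with Psmb10. Psmb8 and Psmb10 correlated at 0.85 with each other and at 0.90 and 0.83 with the constitutive Psmb5. After the mean of each condition was removed, the order was another. Psmb9 then correlated at 0.78 with Psmb8 and 0.84 with Psmb10, and Psmb8 with Psmb10 at 0.59. With Psmb5 the values were 0.72 for Psmb8, 0.67 for Psmb10 and 0.52 for Psmb9.

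Psmb11, the thymic subunit, varied most from library to library. It was at 173, 46.2, 127 and 61.7 CPM at steady state, 1.78, 1.58 and 88.1 at day 1, 269, 267 and 163 at day 4, and 125, 74.9 and 58.9 at day 7. At day 1 it was near the floor in replicates 1 and 2 (63 and 34 counts) and within the steady-state range in replicate 3 (4204 counts), so the 3 libraries of that day did not resemble each other. All 3 day 4 libraries were above all of days 1 and 7, and 2 of the 3 were above all of steady state.

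None of the comparisons of Psmb11 passed. The log2 fold change was -1.74 ± 1.06 at day 1 (edgeR adjusted p = 0.430), 1.19 ± 1.00 at day 4 (edgeR adjusted p = 0.593) and -0.24 ± 1.01 at day 7 (edgeR adjusted p = 0.979) against steady state. From day 1 to day 4 it was 2.93 ± 1.16 (edgeR adjusted p = 0.277). Without day 1 replicate 3 the change at day 1 was -5.92 (edgeR adjusted p = 0.000572) and that from day 1 to day 4 was 7.11 (edgeR adjusted p = 0.000538), so whether Psmb11 passed at day 1 was decided by 1 library.

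Among other cTEC genes, Prss16, which encodes a thymus-specific protease of cTECs, was at 6.87, 16.9 and 451 CPM in the 3 day 1 libraries, low in replicates 1 and 2 and high in replicate 3 as Psmb11 was, and at 216 to 784 CPM at steady state. The summed level of the 7 cTEC markers, Psmb11 not included, was 265, 189 and 962 CPM in the day 1 libraries. The ratio of Psmb11 to Prss16 CPM was 0.200 to 0.242 at steady state, 0.259, 0.0932 and 0.195 in the day 1 libraries and 0.314 to 0.340 at day 7, and at day 4 it was 0.202 in 1 library and 0.692 and 0.711 in the other two. The genes most like Psmb11 by correlation were Cd83 (r = 0.976), which cTECs and dendritic cells express, Prss16 (0.950), Inmt (0.942), Tdrp (0.941) and Hexim1 (0.938). Within conditions, after the mean of each was removed, Cd83 still correlated with Psmb11 at 0.987 and Prss16 at 0.936. The part of cTEC number in the level of Psmb11 was not tested.

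**Figure D2:**
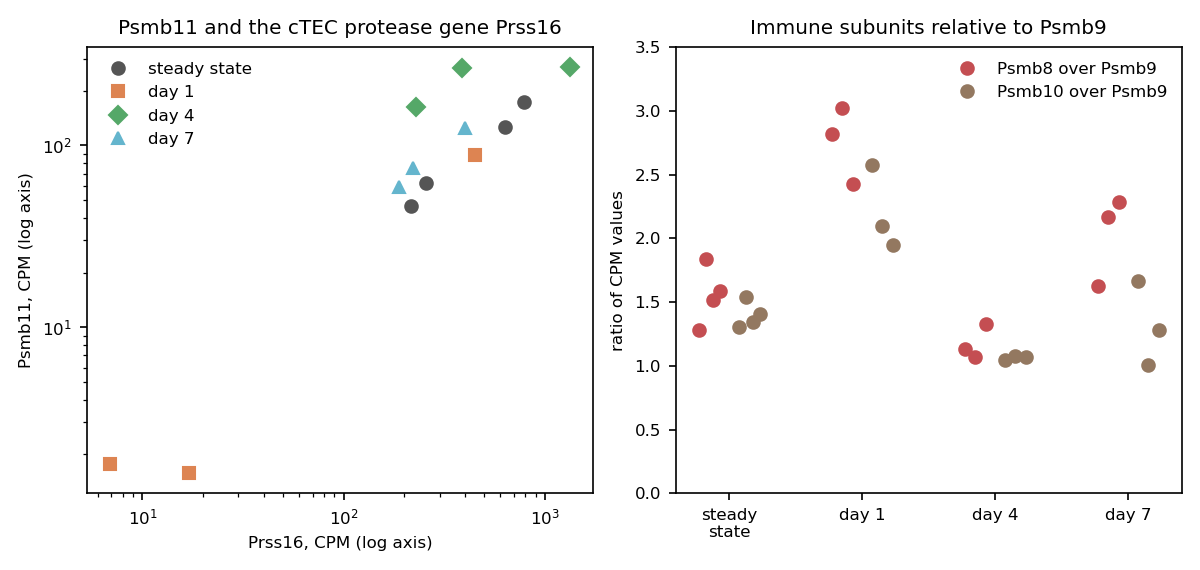
Left, Psmb11 against Prss16 in CPM (both log axes), 1 point per library, with conditions by colour and shape: 2 of the day 1 libraries lie far below all others on both axes. Right, the ratio of Psmb8 and of Psmb10 to Psmb9 CPM in each library by condition: both ratios are highest at day 1 and stand at 1.04 to 1.33 at day 4.

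The activator genes followed the constitutive and immune subunits. Psme2 rose at day 1 and fell from day 1 to day 7, and Psme1 had almost the same values but did not pass. Psme1 (PA28α) was at 102, 119, 96.3 and 119 CPM at steady state, 357, 167 and 167 at day 1, 90.8, 144 and 138 at day 4, and 126, 157 and 124 at day 7. Psme2 (PA28β) was at 124, 130, 98.6 and 112 CPM at steady state, 398, 187 and 190 at day 1, 112, 152 and 145 at day 4, and 150, 117 and 116 at day 7. For both genes day 1 lay above steady state without overlap.

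The log2 fold change at day 1 was 1.15 ± 0.27 for Psme2 (edgeR adjusted p = 0.0393) and 1.08 ± 0.28 for Psme1 (edgeR adjusted p = 0.0633), which was 0.62 without day 1 replicate 1 (edgeR adjusted p = 0.278). Psme2 fell by 1.02 ± 0.29 on the log2 scale from day 1 to day 7 (edgeR adjusted p = 0.0475). Without day 1 replicate 1 these 2 calls of Psme2 were lost, at 0.70 (edgeR adjusted p = 0.163) and -0.57 (edgeR adjusted p = 0.149). The rise was also lost without PBS day 1 replicate 2 (edgeR adjusted p = 0.0639) and without PBS day 7 replicate 1 or 2 (0.115 and 0.117). The fall was also lost without day 1 replicate 3 (edgeR adjusted p = 0.0521) and without day 7 replicate 1, 2 or 3 (0.0508, 0.160 and 0.151). A near copy, Psme2b, took 148 to 1173 counts per library. Reads that match both places would have been dropped in counting, which may lower the counts of Psme2.

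Counting over the 9 genes, 3 rose at day 1 (Psmb8, Psmb10 and Psme2) against 1.68% of the 19984 genes tested, and 6 lay above steady state without overlap against 7.25% of genes. Without day 1 replicate 1, Psmb8 alone of the 9 passed in edgeR. With all libraries, DESeq2 called 7 at day 1, all but Psmb9 and Psmb11. The median log2 fold change of the 9 was 1.04 at day 1, against -0.10 over all genes. At day 4, 0 of the 9 passed in edgeR (0.290% of genes did), 2 had an unadjusted p under 0.05 and DESeq2 called 1, Psmb9, while 3 (Psmb8, Psmb9 and Psmb10, the immune subunits) lay above steady state without overlap, against 6.44% of genes. At day 7, 0 passed in edgeR (0.00500% of genes did) or in DESeq2, 1 had an unadjusted p under 0.05, and Psmb8 and Psme1 lay above steady state without overlap, against 2.82% of genes.

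Between the irradiated conditions, 2 of the 9 fell from day 1 to day 7 (Psmb10 and Psme2), against 4.45% of genes, and 6 lay below day 1 without overlap, against 14.8%. From day 1 to day 4, 0 passed in edgeR (1.43% of genes did), although 7 had an unadjusted p under 0.05 and DESeq2 called 1, Psmb8. The same comparison had 6 genes below day 1 without overlap, against 13.7% of genes, and Psmb11 above it, against 12.6%. From day 4 to day 7, 0 passed in edgeR (3.90% of genes did) or in DESeq2 and 1 had an unadjusted p under 0.05. Psmb9 and Psmb11 lay below day 4 without overlap, against 14.0% of genes. Comparisons with the same day or with steady state share those libraries and are not independent.

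**Figure D3:**
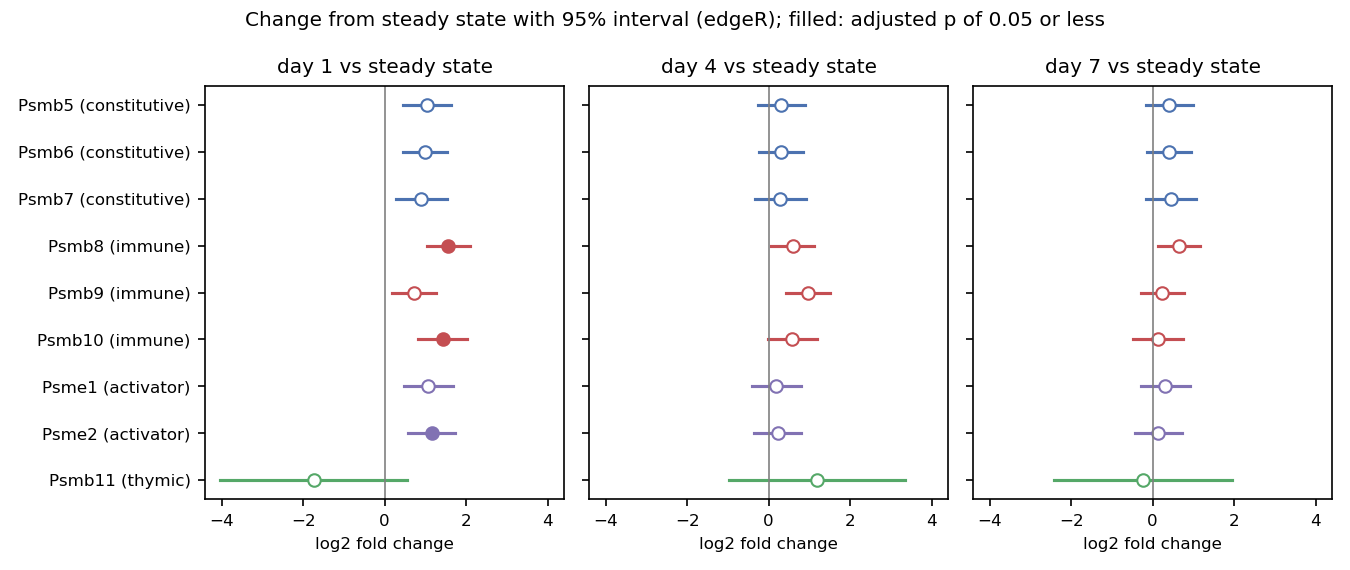
log2 fold change from steady state with its 95% interval (edgeR) for each gene at days 1, 4 and 7, filled where the adjusted p was 0.05 or less. Filled points are Psmb8, Psmb10 and Psme2 at day 1, and the interval of Psmb11 is several times wider than those of the other 8 genes.

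Every column name of the count matrix ends in a tag that the sources used here do not explain. By the start of the tag the libraries fall into 3 families, and day 1 replicate 1 is the only day 1 library of its family. In the family with 2 libraries each of steady state and day 1, the log2 ratio of mean CPM at day 1 to steady state was 1.22 for Psmb8, 0.86 for Psmb10, 0.94 for Psmb5 and 0.26 for Psmb9. In the family with 1 of each, which holds day 1 replicate 1, the same values were 2.19, 2.23, 1.69 and 1.36. The 8 genes other than Psmb11 were higher at day 1 in both families, and the third family has no day 1 library.

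To compare the 3 types of subunit at the position they compete for, counts per kb of exon were summed over the alternatives for each catalytic site, and each subunit was given as a share of its site. At the β5 site the immune subunit Psmb8 took 34.1% ± 1.74 (SD, n = 4) at steady state, and 48.3% ± 1.24, 33.9% ± 3.799 and 39.9% ± 6.84 (n = 3 each) on days 1, 4 and 7. All 3 day 1 libraries (48.8%, 49.1% and 46.8%) were above all others of the series, which lay between 31.4% and 44.0%. Day 1 replicate 1, with the highest CPM, did not differ from the others of that day in this share. On day 7 the share was 32.0% in replicate 1, and 44.0% and 43.6% in replicates 2 and 3, which had the highest Ptprc levels of the series.

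The constitutive Psmb5 took 49.6% ± 9.63 of the β5 site at steady state and 49.0% ± 3.27 at day 1, with day 1 inside the steady-state range of 40.7% to 61.8%. It took 41.0% ± 4.15 at day 4 and 49.7% ± 2.71 at day 7. The thymic Psmb11 took 25.3%, 6.58%, 21.9% and 11.6% at steady state, 0.1004%, 0.157% and 7.92% at day 1, 32.2%, 25.9% and 17.3% at day 4, and 15.2%, 7.70% and 8.42% on day 7. Its day 4 shares were thus above those of days 1 and 7 in every library and overlapped steady state.

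Levels per length depend on the length used. With the principal transcript of GENCODE M21 in place of all exons, Psmb8 took 45.7% of the β5 site at steady state and 60.9% at day 1, and was above Psmb5 (39.7% and 36.8%), so the order of Psmb5 and Psmb8 at steady state is not settled by these counts. Day 1 was above all other libraries for Psmb8 with either length, at 59.2% to 61.8% against at most 56.5%.

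At the β1 site the immune Psmb9 took 25.3% ± 5.72 at steady state, and 21.7% ± 1.91, 34.3% ± 0.0996 and 22.7% ± 1.88 on days 1, 4 and 7, and Psmb6 the rest. The day 4 libraries (34.2%, 34.4% and 34.4%) were above all 10 others, of which the highest was at 31.0%. At the β2 site Psmb10 took 84.3% ± 4.15 at steady state, and 88.5% ± 0.833, 87.0% ± 0.457 and 81.1% ± 4.44 on days 1, 4 and 7, and the ranges of all 3 days overlapped that of steady state (79.2% to 89.0%). With principal transcript lengths Psmb10 took 70.6% at steady state, and 77.3%, 74.7% and 65.6% on days 1, 4 and 7. The size of its share thus depends on the length used. So the immune share was highest at day 1 for β5, at day 4 for β1, and without a separate condition for β2. Only the β5 site has a thymic alternative, so its shares also move with Psmb11. Without Psmb11, the ratio of Psmb8 to Psmb5 CPM was 1.56 to 2.54 at steady state and 2.91 to 3.15 at day 1. It was 2.32 to 2.63 at day 4 and 1.84 to 2.77 at day 7, so day 1 was highest here too. These shares and ratios are of RNA in mixed cells and carry no test.

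**Figure D4:**
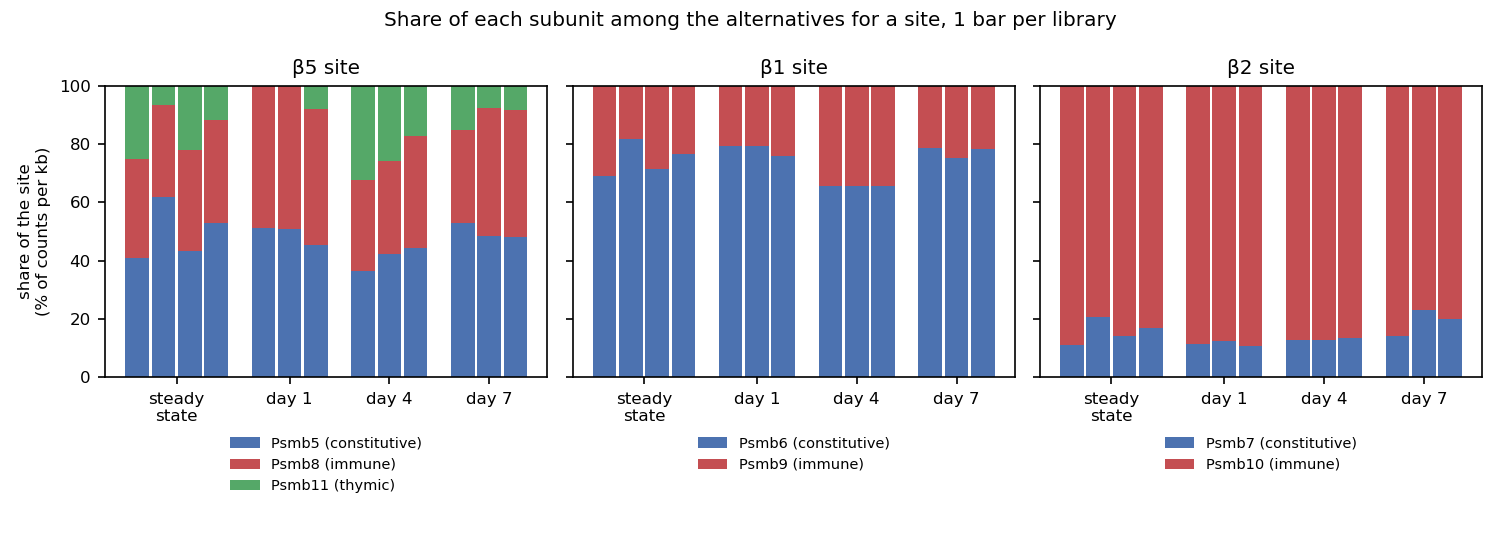
Share of each subunit among the alternatives for the β5, β1 and β2 sites (percent of counts per kb of exon), 1 bar per library, grouped by condition. At β5 the immune share stands at 46.8% to 49.1% at day 1 and the thymic share at 17.3% to 32.2% at day 4, and at β1 the immune share stands at 34.2% to 34.4% at day 4.

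The rest of the proteasome was examined in lists of its other genes. Of the 29 other subunits of the 20S core and 19S cap, 6 rose at day 1, against 1.68% of all genes, and all 29 had positive log2 fold changes, with a median of 0.81 against -0.10 over all genes. The 6 were Psmb3 (log2 fold change 1.29 ± 0.27, edgeR adjusted p = 0.0206) and Psmb2 (1.12 ± 0.25, 0.0346), noncatalytic β subunits, Psmc5 (1.17 ± 0.23, 0.0162) and Psmc2 (0.92 ± 0.22, 0.0453), ATPases of the 19S base that unfold substrates, and Psmd11 (1.01 ± 0.17, 0.00698) and Psmd2 (0.96 ± 0.22, 0.0367), non-ATPase subunits of the 19S cap. Without day 1 replicate 1, Psmc5 and Psmd11 passed (edgeR adjusted p = 0.0457 and 0.0221), and Psmb3, Psmb2, Psmc2 and Psmd2 did not (0.0938, 0.146, 0.178 and 0.157). Psmd11 passed without each of the 7 libraries in turn, and Psmc5 was lost without PBS day 7 replicate 1 or 2. Psmb2, Psmb3, Psmc2 and Psmd2 were also lost without either of these 2, Psmb2, Psmc2 and Psmd2 without PBS day 1 replicate 2, Psmc2 without day 1 replicate 3, and Psmd2 without day 1 replicate 2 (edgeR adjusted p of at most 0.178 over all of these). Of the 7 α subunits, which form the outer rings, none passed by edgeR, with a median of 0.87. At days 4 and 7 none of the 29 passed against steady state, with medians of 0.17 and 0.31. Of all genes, 0.290% and 0.00500% passed on these days. From day 1 to day 7, 1 of the 29 fell, against 4.45% of all genes. This was Psmd11 (-0.82 ± 0.19, edgeR adjusted p = 0.0214), which did not pass without day 1 replicate 1 or day 7 replicate 2 or 3 (edgeR adjusted p of at most 0.0686).

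Genes that build or regulate the constitutive proteasome were examined in the same way, and none was called at day 1, when 2.35% of all genes were. With that share and so few genes, the lack of calls does not tell them from other genes. None of the 8 assembly chaperones tested passed at day 1, with a median log2 fold change of 0.49, nor of the 3 other activators and inhibitor (median 0.31). None of the 4 regulators of constitutive proteasome genes passed, with a median of -0.12. Nfe2l1, the transcription factor that raises proteasome genes when proteasome function is short, was at 334 to 453 CPM at steady state and 316 to 395 at day 1 (log2 fold change -0.19 ± 0.18, edgeR adjusted p = 0.636).

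Among the genes of interferon signalling tested, 2 of 12 rose at day 1, against 1.68% of all genes: Stat2 (1.81 ± 0.24, edgeR adjusted p = 0.000916) and Irf9 (1.33 ± 0.23, 0.00663), which act downstream of the type I interferon receptor. From day 1 to day 4, Stat2 fell (-1.76 ± 0.26, edgeR adjusted p = 0.00420), and from day 1 to day 7, 3 of the 12 fell, against 4.45% of all genes. These were Nlrc5 (-1.82 ± 0.49, edgeR adjusted p = 0.0385), Stat2 (-1.72 ± 0.26, 0.00291) and Irf9 (-1.52 ± 0.25, 0.00511). Ifngr1, a receptor chain for interferon-gamma, was the 1 gene of the 12 that rose in that interval (1.10 ± 0.27, edgeR adjusted p = 0.0275) and is named after its values were seen. Stat2 and Irf9 passed in each of these comparisons without each of its own libraries in turn, whereas Nlrc5 did not pass when any of the 6 libraries compared was left out (edgeR adjusted p of at most 0.105) and Ifngr1 only without day 7 replicate 1.

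Irf1, a transcription factor known to act on Psmb9 and Tap1, was at 108 to 207 CPM at steady state and 135 to 221 at day 1 (log2 fold change 0.29 ± 0.25, edgeR adjusted p = 0.587). Nlrc5, the transactivator of MHC class I genes, was at 7.30 to 32.0 CPM at steady state and 44.5 to 60.6 at day 1, without overlap (1.42 ± 0.44, edgeR adjusted p = 0.123).

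Among 8 genes that load peptides on MHC class I, 2 rose at day 1, against 1.68% of all genes. These were Tap1 (1.67 ± 0.21, edgeR adjusted p = 0.000622) and Tap2 (0.95 ± 0.22, 0.0416), the 2 chains of the peptide transporter. Tap1 was at 103 to 157 CPM at steady state, at 334, 432 and 445 at day 1, at 185 to 235 at day 4 and at 124 to 159 at day 7. It fell from day 1 to day 7 (-1.56 ± 0.23, edgeR adjusted p = 0.00242), and passed in both comparisons without each library in turn. Tap2 passed at day 1 only without PBS day 1 replicate 2 (edgeR adjusted p of at most 0.178 without each of the others). In the 3 day 1 libraries Tap1 was lowest in replicate 1, the library in which Psmb8, Psmb9 and Psmb10 were highest. Of the exonic bases of Psmb9, 5.79% are shared with Tap1, which limits how far the reads of these neighbours can be told apart there.

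**Figure D5:**
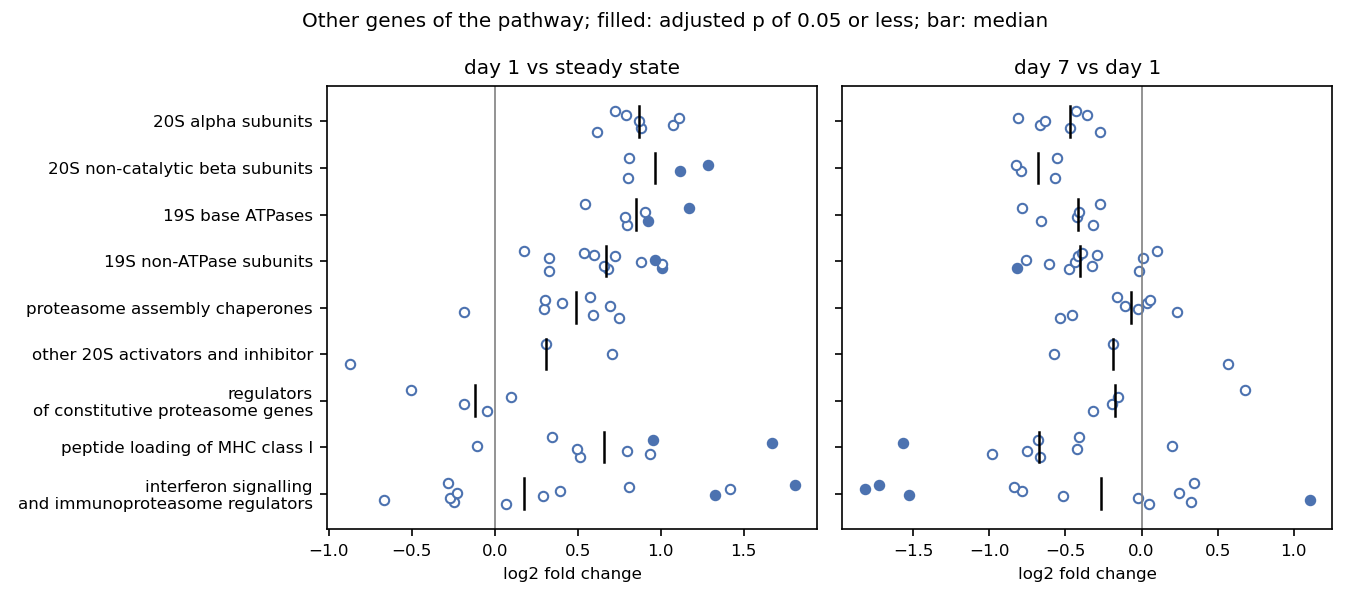
log2 fold change (edgeR) of each other gene of the pathway, by list, for day 1 against steady state and day 7 against day 1, with filled points at an adjusted p of 0.05 or less and bars at the median. At day 1 the 4 lists of core and cap subunits lie to the right, with medians from 0.67 to 0.96, and the regulators of constitutive genes lie around 0.

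Markers of other cell types were measured in the same libraries. The summed fibroblast markers, of 5 genes, were at 78091 CPM in PBS day 4 replicate 2 and at 10856 to 38958 in the other steady-state libraries. They were at 13901 to 42071 CPM at day 1. At day 1, when Psmb8, Psmb10 and Psme2 rose, the summed thymocyte markers (13 of 13 detected in each day 1 library) lay below all steady-state libraries, and the macrophage markers, of 5 genes, were at 63.8 to 112 CPM, inside the steady-state range of 44.5 to 133. The erythroid markers, of 4 genes, were at 1.997 to 2.998 CPM at day 1, below all steady-state libraries (17.0 to 33.8). The mTEC markers were at 667 to 1005 CPM at day 1 and 298 to 962 at steady state. At day 4, thymocyte markers were at their lowest. The summed mTEC markers were at 1100 to 1457 CPM at day 4, mostly from Krt5, a keratin at a mean of 1102 CPM (log2 fold change from steady state 1.89, edgeR adjusted p = 0.0903), while the other 5 of the 6 had negative log2 fold changes. Their part in the levels of the proteasome genes was not tested.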

How the data were processed

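RNA was measured by bulk RNA-seq of CD45- thymic cells in 13 libraries. According to the submitters, reads were trimmed (Trimmomatic 0.38), aligned to GRCm38.p5 with the GENCODE M12 release (STAR 2.7.0e) and counted by the authors (featureCounts 1.6.3) at default settings, which ignore strand and drop reads that match several genes or places. The deposited values are counts per gene without normalization, beside the authors' exonic length of each gene. All columns of samples were used. Conditions came from the labels. The steady-state columns carry PBS names that cannot be tied to the replicate numbers of the labels, and were used as a group. Symbols came from GENCODE M21 (53274 of 53379 identifiers).

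All libraries entered 1 fit in edgeR 4.0.16 (R 4.3.3) with condition as the only factor, TMM normalization, filterByExpr() by condition (minimum count 10, minimum total 15) and the quasi-likelihood F-test, two-sided, with Benjamini-Hochberg adjustment over 19984 genes and calls at 0.05 or less without a fold threshold. SEs were computed from the log2 fold change and F. CPM used TMM-scaled library sizes. Likeness used log2 CPM with a prior count of 2 and genes with a mean of at least 5 CPM. The steps were tested on simulated data for the day 1 comparison only. The simulated spread between libraries (dispersion) was below the 0.177 estimated for these data. Tables were made with pandas 2.3.3 and numpy 2.4.6 in Python 3.11.15, and plots with matplotlib 3.10.9.

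The proteasome genes and gene lists were chosen with earlier results of these data known. Named in the text are the 9 genes in every comparison, up to 3 genes per list with the largest change among those that passed, Irf1, Nlrc5, Tap1 and Nfe2l1 whatever their values, and the 5 genes most like Psmb11, Psmb9 and Psmb5. A gene of the interferon list is not reported here. The ratios between genes were chosen after the values were seen. Alternatives were DESeq2 1.42.0, RLE normalization, no filter, at least 10 counts in every library, only the conditions compared, the tag family as a covariate, the replicate number as a block, each library left out, and, for shares, counts not divided by length and, added after seeing the data, the principal transcript length and, for called list genes, each library left out.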

Additional observations from a re-analysis of the deposited data

Results flagged for a closer look

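Psmb5 at steady state had 1 library far from the others, PBS day 4 replicate 2 at 81.4 CPM against 47.0 to 52.8 in the other 3, with a Dixon ratio of 0.831, just past the critical value for 4 libraries. It was 1 of 16 levels and shares examined in this way, of which chance would give about 0.8, or 1 in 20.

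The change from steady state differed between days 1 and 7 for 2 genes by a direct test of the 2 days. Psmb10 was lower at day 7 by a log2 fold change of -1.28 and Psme2 by -1.02 (edgeR adjusted p = 0.0244 and 0.0475). Both differences were lost without day 1 replicate 1, without day 7 replicate 2 (edgeR adjusted p = 0.0939 and 0.160) and without day 7 replicate 3 (0.1002 and 0.151), and that of Psme2 also without day 1 replicate 3 or day 7 replicate 1.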

How the results depend on the processing

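Psmb8 passed at day 1 under all 14 alternatives, with log2 fold changes from 1.26 to 1.71. The number of the 9 genes called at day 1 was 3. With at least 10 counts in every library it was 5. With the tag family as a covariate and with DESeq2 it was 7, all but Psmb9 and Psmb11. It was 1 with only the 2 conditions, and 1 to 5 when each library was left out. From day 1 to day 7 it was 2. It was 1 without a filter and with at least 10 counts in every library, 6 with the tag family, 0 with only the 2 conditions, and 0 to 2 when each library was left out. Psmb8, not called between these days in the main fit, passed in 3 of 13 alternatives. DESeq2 gave 1 call at day 4 (Psmb9) and 1 from day 1 to day 4 (Psmb8), where leaving out libraries gave 0 to 1. Over all genes, calls at day 1 numbered 469 in the fit of edgeR and 1381 in DESeq2. The causes were not tested, except that fewer libraries entered the fits of 2 conditions.

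Directions turned only for differences that passed under no setting. With the tag family as a covariate, the log2 fold change at day 7 was -0.061 for Psmb10, 0.56 for Psmb11 and -0.12 for Psme2, and that from day 4 to day 7 was -0.036 for Psmb5, -0.029 for Psmb6, -0.010 for Psmb7, -0.023 for Psmb8 and -0.054 for Psme1. The last change of Psmb8 was -0.0100 with RLE and -0.010 with DESeq2. When libraries were left out, the range at day 7 was -0.062 to 0.31 for Psmb10 and -0.61 to 0.15 for Psmb11. From day 4 to day 7 it was -0.15 to 0.19 for Psmb5, -0.10 to 0.21 for Psmb6, -0.068 to 0.26 for Psmb7, -0.24 to 0.20 for Psmb8 and -0.16 to 0.24 for Psme1.

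The share of Psmb8 at β5 moved with the length used. With counts not divided by length it was 43.9% at steady state, and 70.2% and 53.6% on days 1 and 7. With the principal transcript, an alternative added after seeing the data, it was 45.7% at steady state, and 60.9%, 45.1% and 52.0% on days 1, 4 and 7. Here the lengths themselves set the change.

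The replicate numbers did not pair the samples: the mean correlation of deviations between same-numbered libraries was -0.51 for days 1 and 4, -0.14 for days 1 and 7, and 0.07 for days 4 and 7. With the replicate number as a block, 1 of the 9 genes was called at day 1 (Psmb8, paired by the numbers in the column names) and 0 from day 1 to day 7. Each of the 8 genes other than Psmb11 had at least 625 counts in every library, and Psmb11 at least 34.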

Other observations

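Tap1 and Psmb9 lie head to head on chromosome 17, and their ratio of CPM was examined after the values were seen, without a test. It was 1.51 to 1.75 at steady state, 1.90, 4.64 and 3.63 at day 1, 1.77, 1.05 and 1.37 at day 4, and 1.34 to 1.66 at day 7. All 3 day 1 libraries were above every other library, so the 2 neighbours did not keep 1 proportion at day 1. Day 1 replicate 1, the library with the highest Psmb9 of that day, had the lowest ratio.

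The ratio of Psmb9 to the constitutive Psmb6 in CPM, from which library size cancels, was 1.02 to 1.03 in the 3 day 4 libraries. The other 10 libraries lay between 0.432 and 0.877. The ratio of Psme1 to Psme2 lay between 0.814 and 1.34 in the 13 libraries, with 0.879 to 0.897 at day 1.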
